A study of Mus musculus with 8 samples.

Results

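Bulk RNA sequencing of mouse cerebellum was examined for 6 genes that make, package, take up and break down the inhibitory transmitter GABA. The genes were chosen by name, and all 6 (Gad1, Gad2, Slc32a1, Slc6a11, Abat and Aldh5a1) were found among 56691 genes in the deposited count table and among the 22423 genes that were tested. Cerebella came from 4 Atm-WT mice, labelled 2M, 7M, 13M and 32M, and 4 Atm-KO mice, labelled 1M, 7F, 11M and 12M, with a library for each mouse. The mice were of the strain B6;129S4-Atmtm1Bal/J, were 6 months old, and carried either ATM +/+ (the littermate controls) or ATM -/-, a constitutive loss of Atm in all tissues. The labels name no treatment in either group. The question was whether RNA of the GABA pathway differed between Atm-KO and Atm-WT cerebellum.

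GABA is made from glutamate by glutamate decarboxylase, an enzyme that needs a vitamin B6 cofactor and exists as GAD67 (Gad1) and GAD65 (Gad2). The vesicular carrier VGAT (Slc32a1) loads GABA into synaptic vesicles, membrane carriers such as GAT3 (Slc6a11) take it up again, and GABA transaminase (Abat) followed by succinic semialdehyde dehydrogenase (Aldh5a1) feeds its carbon into the TCA cycle. In the cerebellum, Purkinje cells, molecular layer interneurons and Golgi cells release GABA, and VGAT also loads glycine. GAT3 is known as a carrier of astrocytes, with high levels in deep and caudal parts of the brain.

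The 6 genes lie on 4 chromosomes of GRCm39 in GENCODE vM39. Gad1 (ENSMUSG00000070880) spans chr2:70383416-70432372 and Gad2 (ENSMUSG00000026787) spans chr2:22511862-22583886, both on the forward strand. Slc32a1 (ENSMUSG00000037771) spans chr2:158452605-158464883 and Slc6a11 (ENSMUSG00000030307) spans chr6:114108200-114226913, both forward. Abat (ENSMUSG00000057880) spans chr16:8331233-8439996 on the forward strand, and Aldh5a1 (ENSMUSG00000035936) spans chr13:25091562-25121672 on the reverse strand. Slc32a1 has the most compact canonical transcript, with 2 exons and 2879 bases, whereas the other 5 have between 10 and 17 exons.

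The 250 bases before the start of the canonical transcript are shown for 2 genes, Slc32a1 because its RNA gave the smallest p of the group and Slc6a11 because it varied most between mice. They were read on each gene's own strand from GRCm39, at chr2:158452355-158452604 and chr6:114107950-114108199, and capitals mark CpG dinucleotides.

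Slc32a1: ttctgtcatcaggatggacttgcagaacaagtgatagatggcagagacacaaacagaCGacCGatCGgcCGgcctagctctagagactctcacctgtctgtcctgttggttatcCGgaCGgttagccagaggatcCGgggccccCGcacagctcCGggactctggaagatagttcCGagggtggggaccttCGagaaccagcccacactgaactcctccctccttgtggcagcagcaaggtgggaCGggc

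Slc6a11: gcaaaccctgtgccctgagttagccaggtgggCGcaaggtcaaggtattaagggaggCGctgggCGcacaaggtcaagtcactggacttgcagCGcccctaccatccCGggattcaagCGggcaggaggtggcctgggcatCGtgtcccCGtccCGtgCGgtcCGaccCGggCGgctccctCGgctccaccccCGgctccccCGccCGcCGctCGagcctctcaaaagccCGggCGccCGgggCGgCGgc

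The Slc6a11 window held 24 CpG and 71.2% G and C, and 90.7% of the same windows of 21770 protein-coding genes held fewer CpG. Slc32a1 and Gad1 held 12 each, Abat 14, Aldh5a1 15 and Gad2 6, beside a median of 8. All 250 bases of the Slc32a1 window lie in annotated exons of Gm14204, a long noncoding RNA gene on the opposite strand, whose exons continue into Slc32a1. Both strands of the 6 windows were searched for 4 motifs: TAATCC, a site of Otx homeodomain factors, TGACGTCA, the cyclic AMP response element, CAGCTG, an E-box, and TATAAA, the TATA box. None of the 6 windows held any of these letters, which occur in 7%, 1.69%, 11.9% and 11.9% of all windows.

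The Atm-WT libraries held 76912738 to 88030300 counts and the Atm-KO libraries 65967130 to 78431478, and each of the 6 genes had between 2262 and 66394 counts in every library. Levels are given as CPM, the usual unit scaled to library depth, here with TMM factors, and fold changes as log2 of Atm-KO over Atm-WT with the standard error (SE) of edgeR's quasi-likelihood test. A gene was called at a Benjamini-Hochberg adjusted p under 0.05 over all 22423 genes. Cerebellar markers were present in all libraries, for example Calb1 of Purkinje cells (926.2 to 1150 CPM) and Cbln3 of granule cells (1157 to 1527 CPM). Atm-KO mouse 12M stood apart, with the lowest summed level of 6 oligodendrocyte markers (1766 CPM against 2875 to 3955 CPM elsewhere) and 4.32 CPM of the glutamate carrier Slc17a6 against 73.6 to 116 CPM elsewhere. Xist, the X inactivation RNA of female cells, had 70528 counts in Atm-KO mouse 7F and at most 14 in each other mouse. By this count 7F was the only female, so sex was not balanced between the genotypes, and it was not a covariate. Genes of the GENCODE class TEC, whose transcripts have yet to be tested by experiment, took 0.204% to 0.333% of counts of Atm-WT libraries and 0.354% to 0.530% of Atm-KO libraries. Genes of the mitochondrial genome took 0.903% to 1.20% and 0.565% to 0.952%, with 3 of 4 Atm-KO mice below every Atm-WT mouse. The part of these shares in the results below was not tested.

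The targeted gene was read first. Atm, the kinase that signals DNA breaks, was at 67.6, 80.0, 79.4 and 59.0 CPM in Atm-WT mice 2M, 7M, 13M and 32M and at 51.1, 44.3, 41.1 and 44.9 CPM in Atm-KO mice 1M, 7F, 11M and 12M. Every Atm-KO mouse lay below every Atm-WT mouse, the direction the labels give. Counts cover all exons of the gene, so reads from outside the disrupted part are included. The log2 fold change was -0.66 ± 0.10 (SE, n = 4 mice per genotype), with an adjusted p of 0.0775 in edgeR.

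For all 6 GABA genes the fitted level was lower in Atm-KO cerebellum, by a log2 fold change between -0.44 and -0.07 with a median of -0.16, and none was called. Slc32a1, the vesicular carrier, came closest and was the only gene of the 6 in which every Atm-KO mouse lay below every Atm-WT mouse. With 0 of 6 genes called by edgeR, 0.0178% of all genes tested were called, which amounts to 4 genes. At an unadjusted p under 0.05, 2 of the 6 (Slc32a1 and Abat) were lower and 0 were higher, beside 8.48% of all genes lower and 11.7% higher. Slc32a1 stayed under that p in 16 of 16 other ways of fitting and Abat in 6 of 16. DESeq2's Wald test called 1 of the 6, Slc32a1 (adjusted p = 0.0274), beside 2.44% of its 20724 genes called lower and 5.05% called higher. Complete separation of the genotypes with lower Atm-KO levels was seen in 1 of 6 genes and in 5.12% of all genes, and with higher levels in 0 of 6 and 6.47%.

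A shared downward sign was common among abundant genes. Among the 2509 genes whose mean reached 100 CPM, a floor that all 6 passed, 72.8% had a lower fitted level in Atm-KO and the median log2 fold change was -0.06, against 53.1% and -0.02 over all genes tested. Of these 2509 genes, 9.96% had every Atm-KO mouse below every Atm-WT mouse. In bulk tissue, fewer cells of a type and less RNA per cell cannot be told apart.

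**Figure D1:**
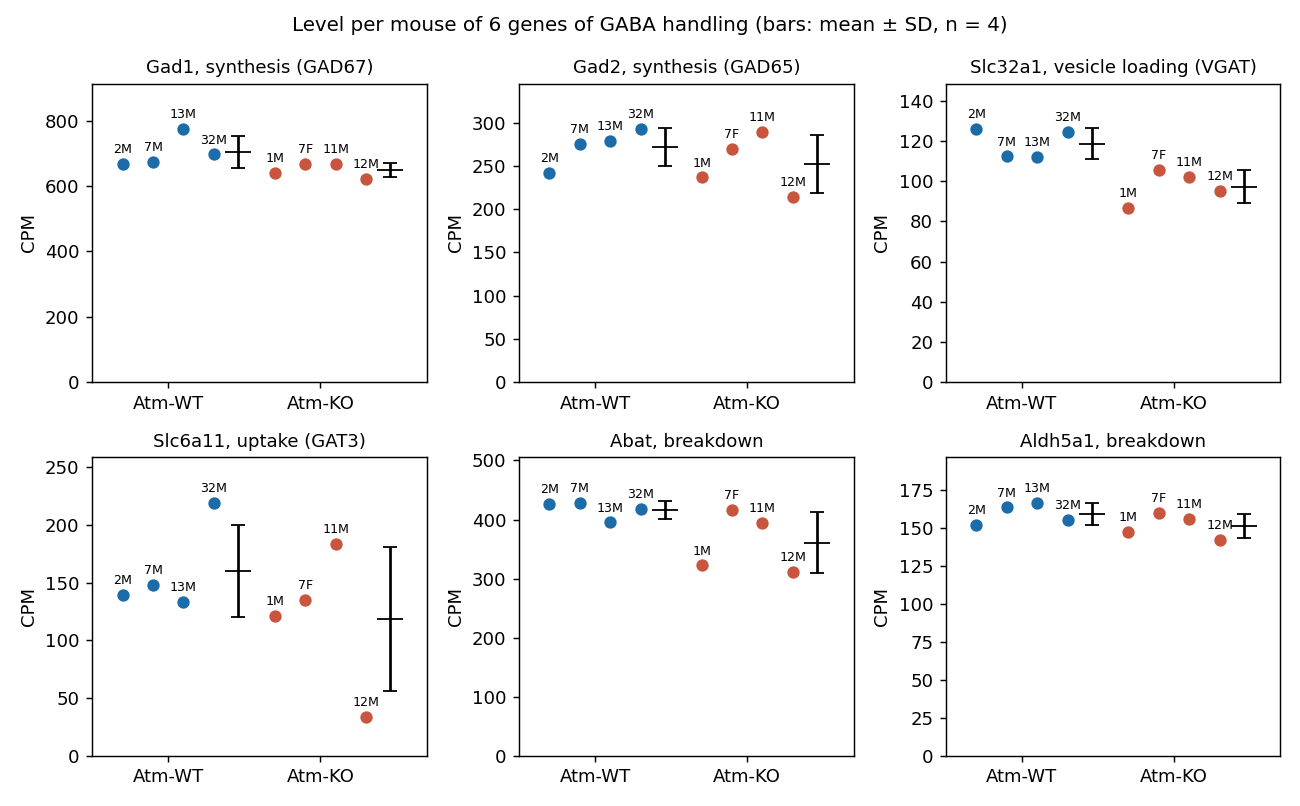
Level of each of the 6 genes in CPM (y axis, from 0) in each mouse, blue for Atm-WT and red for Atm-KO, with the mouse label above each point and the mean ± SD of 4 mice beside it. Only in the Slc32a1 panel do the genotypes not overlap, and mouse 12M is far below the others for Slc6a11 (33.5 CPM).

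The synthesis enzymes were examined next. Gad1, which encodes the decarboxylase that supplies most cellular GABA, was at 668, 673, 774 and 696 CPM in Atm-WT mice 2M, 7M, 13M and 32M and at 639, 666, 669 and 622 CPM in Atm-KO mice 1M, 7F, 11M and 12M. The ranges touched only at their edge, since mouse 2M lay just under mouse 11M (668.3 against 668.5 CPM). The log2 fold change was -0.12 ± 0.07 (edgeR, adjusted p = 0.375), with a 95% interval from -0.27 to 0.04. It was -0.05 without mouse 13M.

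Gad2, whose product is tied to nerve terminals and vesicles, was at 242, 276, 279 and 293 CPM in the same Atm-WT mice and at 237, 270, 290 and 215 CPM in the Atm-KO mice. The genotypes overlapped widely, with mouse 11M near the top and mouse 12M at the bottom of all 8. The log2 fold change was -0.11 ± 0.10 (edgeR, adjusted p = 0.562), with a 95% interval from -0.32 to 0.10. It was -0.04 without mouse 12M, -0.17 without mouse 11M and -0.16 without mouse 2M. Per kilobase of canonical transcript, the Gad2 level was 0.264 ± 0.021 of the Gad1 level in control mice and 0.265 ± 0.026 in knockout mice (SD, n = 4), so the balance of the synthesis genes was alike in the means of both genotypes.

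Slc32a1 was at 126, 112, 112 and 125 CPM in Atm-WT mice 2M, 7M, 13M and 32M. It was at 86.7, 105, 102 and 95.1 CPM in Atm-KO mice 1M, 7F, 11M and 12M. The Atm-KO mean was 97.4 ± 8.36 CPM against 118.8 ± 7.60 CPM (SD, n = 4), and the highest Atm-KO mouse, 7F, lay under the lowest Atm-WT mouse, 13M. Its log2 fold change was -0.29 ± 0.08 with a 95% interval from -0.45 to -0.12, and the gene ranked 563 of 22423 by p. Its unadjusted p was 0.0026 and its adjusted p was 0.105 in edgeR. The call therefore depended on the tool, since DESeq2 gave an adjusted p of 0.0274 for the same fold change.

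Relative to the genes of GABA synthesis, Slc32a1 was at 0.218, 0.188, 0.168 and 0.201 of the summed Gad1 and Gad2 level in Atm-WT mice 2M, 7M, 13M and 32M. It was at 0.156, 0.179, 0.170 and 0.179 in Atm-KO mice 1M, 7F, 11M and 12M, per kilobase of canonical transcript. These ratios overlapped, and they were given no test.

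A pair of antisense genes shares exon bases with Slc32a1, and whether the counting used strand is not given in the sources used here, so reads of either strand cannot be told apart there. Gm14204 covers 302 bases of the 5' untranslated region, at chr2:158452605-158452906. Gm14205 covers 332 bases of that region, some of them also in Gm14204, and 365 coding bases, from position 158452830 to 158453526. Gm14204 had between 13.4% and 23.0% as many counts as Slc32a1, with a log2 fold change of 0.13 ± 0.08 (edgeR, unadjusted p = 0.122), and Gm14205 had 2.25% to 3.30%, with -0.20 ± 0.19 (unadjusted p = 0.304). Neither neighbour reached an unadjusted p under 0.05, so the signs of their changes are not resolved. The part of the shared bases in the Slc32a1 result was not tested.

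Markers of the cells that carry Slc32a1 were set beside it. Of 8 Purkinje cell markers 0 were called and 7 had lower fitted levels in Atm-KO, with a median log2 fold change of -0.09 and a summed level of 9286 to 11370 CPM in Atm-WT mice against 9149 to 10870 CPM in Atm-KO mice. The Purkinje genes Calb1, Car8, Rgs8, Itpr1 and Ppp1r17 had log2 fold changes of -0.03, 0.01, -0.03, -0.11 and -0.15, and Pcp2 was at -0.40 (edgeR, adjusted p = 0.179). Of 6 molecular layer interneuron markers 0 were called, with a median of -0.11 and summed levels of 490.9 to 540.8 CPM in Atm-WT mice against 449.8 to 512.6 CPM in Atm-KO mice. Of 3 Golgi cell markers 0 were called, with a median of -0.19 and summed levels of 263.4 to 292.9 CPM and 213.5 to 281.3 CPM. No summed marker level of these inhibitory cells separated the genotypes, but such sums mostly follow the most abundant genes. Among the Purkinje genes, Itpr1 alone was at 4819 to 6888 CPM in Atm-WT mice, against 55.2 to 84.4 CPM for Pcp2. The glycine carrier Slc6a5 of Golgi and other glycine neurons, whose cells also use VGAT, was at -0.03 ± 0.10. The part of these cells in the Slc32a1 result was not tested.

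Slc6a11, the GAT3 carrier, had the largest fitted change of the 6 and the least certain. It was at 139, 148, 134 and 219 CPM in Atm-WT mice 2M, 7M, 13M and 32M and at 121, 135, 184 and 33.5 CPM in Atm-KO mice 1M, 7F, 11M and 12M. Mouse 12M was far below all others and mouse 32M above them, and the other 6 mice overlapped. The log2 fold change was -0.44 ± 0.37 (edgeR, adjusted p = 0.537), with a 95% interval from -1.25 to 0.38. It was -0.13 without Atm-KO mouse 12M, -0.25 without Atm-WT mouse 32M, -0.72 without Atm-KO mouse 11M and 0.27 with 1 surrogate variable in the fit, so its size depended on single libraries and its sign on the covariate.

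Mouse 12M was also lowest, and mice 32M and 11M highest, in Slc17a6, the glutamate carrier VGLUT2 of deep nuclear and brainstem neurons. Slc17a6 was at 74.3, 75.9, 73.6 and 116 CPM in Atm-WT mice 2M, 7M, 13M and 32M and at 76.4, 80.1, 107 and 4.32 CPM in Atm-KO mice 1M, 7F, 11M and 12M. Over the 8 mice, Pearson's r of the log2 levels was 0.980 (two-sided exact permutation p = 0.0018, adjusted 0.0087 over the 6 genes) and Spearman's rho was 0.738 (exact p = 0.0458, adjusted 0.275). Without mice 12M and 32M, the farthest from the median of Slc17a6, r over the 6 others was 0.857, and mouse 11M still lay apart from the remaining 5. Within a genotype there were only 4 mice, too few for a correlation. Slc17a6 came from a list of 9 markers and shared the extreme mice of Slc6a11. The adjustment over the 6 genes does not cover that choice. The p-values of this paragraph therefore describe likeness and do not test a link. For Gad2, r was 0.781 (exact permutation p = 0.0029, adjusted 0.0087) and rho 0.643 (exact p = 0.0962, adjusted 0.288), with r at 0.546 without the same 2 mice. For the other 4 genes r ran from 0.403 for Slc32a1 to 0.698 for Abat, with adjusted exact permutation p from 0.130 to 0.397, and from -0.245 to -0.0091 without those mice.

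**Figure D2:**
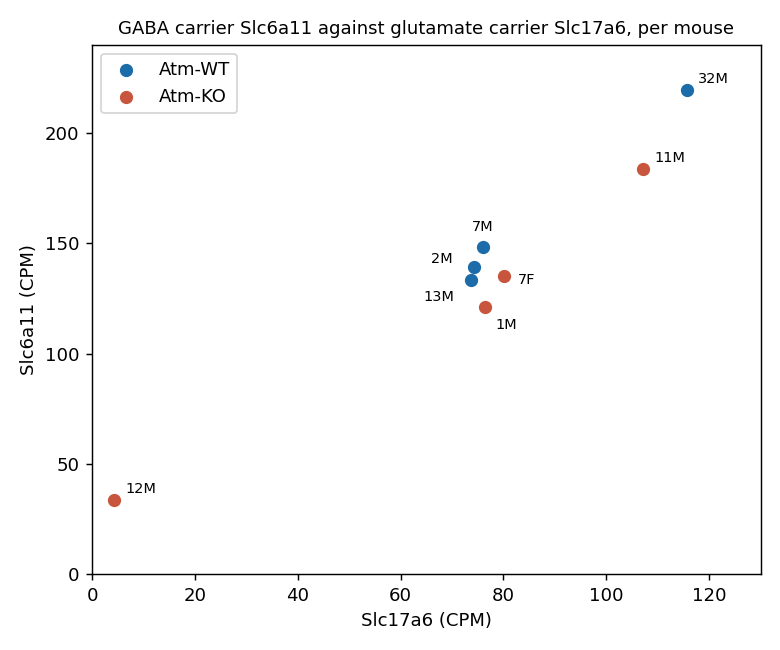
Level of Slc6a11 (y axis, CPM) against Slc17a6 (x axis, CPM) in each of the 8 mice, blue for Atm-WT and red for Atm-KO. Mouse 12M lies at the lower left (4.32 and 33.5 CPM), 5 mice lie close together, and mice 11M and 32M lie at the upper right.

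Of 9 markers of deep nuclei and brainstem, 5 passed the filter on low counts and 0 were called. Their summed level ran from 140.0 to 174.9 CPM among Atm-WT mice and from 61.2 to 187.7 CPM among Atm-KO mice, with mouse 12M lowest. The glycine receptor subunit Glra1, a marker on the same list, was at 0.429 CPM in mouse 12M and at 5.55 to 11.6 CPM in the others. Not all of the list was low in that mouse, since Slc6a5 was at 55.2 CPM there and at 49.1 to 64.8 CPM in the others. Tph2, of serotonin neurons, was at 1.21 CPM there against 0.462 to 4.32 CPM, and its log2 fold change was 1.08 ± 0.48 (edgeR, adjusted p = 0.234). It was the only marker of the list at an unadjusted p under 0.05, and it was higher in Atm-KO. The acetylcholine synthesis gene Chat, at no more than 1.03 CPM, was at 1.92 ± 0.97 (edgeR, adjusted p = 0.294), while Hoxc5 of the caudal hindbrain and spinal cord was at 0 in every library. Astrocyte and Bergmann glia markers, the cell class in which GAT3 is known, had lower fitted levels in 8 of 8, with 4 at an unadjusted p under 0.05, 0 called and a median log2 fold change of -0.18. Their summed level was 2669 to 2887 CPM in Atm-WT mice against 2460 to 2676 CPM in Atm-KO mice. The lowest p among them belonged to Aldh1l1, a folate enzyme of astrocytes, at -0.28 ± 0.06 (edgeR, adjusted p = 0.0931), and Gdf10 of Bergmann glia was at -0.36 ± 0.09 (adjusted p = 0.0948). Beside the 8 of 8 glial markers, 53.1% of all genes tested and 72.8% of genes reaching 100 CPM had lower fitted levels. Of all genes tested, 8.48% were lower at an unadjusted p under 0.05. The part of tissue composition in the Slc6a11 values was not tested.

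The breakdown enzymes differed in their spread. Abat, the transaminase that turns GABA into succinic semialdehyde, was at 426, 428, 395 and 418 CPM in Atm-WT mice 2M, 7M, 13M and 32M and at 322, 416, 395 and 311 CPM in Atm-KO mice 1M, 7F, 11M and 12M. Mice 1M and 12M lay well below every Atm-WT mouse, and mice 7F and 11M lay among or at the edge of the Atm-WT mice. The log2 fold change was -0.21 ± 0.09 with a 95% interval from -0.41 to -0.0002, an unadjusted p of 0.0498 and an adjusted p of 0.247 in edgeR. Without mouse 12M it was -0.14, and with 1 surrogate variable in the fit it was -0.08.

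Aldh5a1, which clears the succinic semialdehyde that Abat produces, had the smallest fitted change and SE of the 6. In the same order of mice, its Atm-WT levels were 152, 164, 167 and 155 CPM and its Atm-KO levels were 148, 160, 156 and 142 CPM. The genotypes overlapped, with a log2 fold change of -0.07 ± 0.06 (edgeR, adjusted p = 0.531) and a 95% interval from -0.21 to 0.06. It was -0.03 without mouse 13M and -0.04 without mouse 12M. The ratio of Abat to Aldh5a1 per kilobase of canonical transcript was 2.82 ± 0.20 for the Atm-WT group and 2.56 ± 0.24 for the Atm-KO group (SD, n = 4 each), with mice 1M and 12M at 2.35 and the others between 2.55 and 3.02. Of the antisense genes at Aldh5a1, 4932702P03Rik shares 1334 exon bases and 9330162012Rik shares 203, and they had at most 1.65% and 4.28% as many counts. Their log2 fold changes were -0.12 ± 0.18 (edgeR, adjusted p = 0.742) and 0.36 ± 0.14 (adjusted p = 0.180), the latter opposite in sign to that of Aldh5a1.

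Per kilobase of canonical transcript, Gad1 stood highest of the 6 in Atm-WT cerebellum at 169 ± 11.8 CPM (SD, n = 4). Abat followed at 79.2 ± 2.89, then Gad2 at 44.7 ± 3.57, Slc32a1 at 41.3 ± 2.64, Slc6a11 at 38.7 ± 9.66 and Aldh5a1 at 28.2 ± 1.24. Gad2, Slc32a1 and Slc6a11 overlapped over the Atm-WT mice, so their order is not resolved, and per kilobase of all annotated exons Slc6a11 (31.7) came before Slc32a1 (23.7). In Atm-KO mice the level per kilobase of canonical transcript was 156 ± 5.43 CPM for Gad1, 68.6 ± 9.91 for Abat, 41.5 ± 5.49 for Gad2, 33.8 ± 2.90 for Slc32a1, 28.6 ± 15.2 for Slc6a11 and 26.8 ± 1.40 for Aldh5a1. On this length the means had the same order in both genotypes, but in Atm-KO mice Slc6a11 (8.10 to 44.5) overlapped Gad2, Slc32a1 and Aldh5a1, so its place is not resolved. Per kilobase of all annotated exons, Abat came before Gad2 in Atm-WT mice (43.3 against 41.8) and after it in Atm-KO mice (37.5 against 38.8), with overlapping mice in both genotypes.

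The Atm-KO mice were not equally low. Relative to the Atm-WT mean, the median log2 level of the 6 was -0.07, -0.02, -0.02 and 0.04 in Atm-WT mice 2M, 7M, 13M and 32M and -0.28, -0.04, -0.05 and -0.33 in Atm-KO mice 1M, 7F, 11M and 12M. Mice 1M and 12M were low, whereas 7F and 11M lay within the range of the Atm-WT mice.

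Genes whose log2 levels ran closely with each of the 6 over the 8 mice were drawn from the 11700 genes whose mean reached 5 CPM, and these r describe 8 libraries only. For Slc32a1 they were Grina (r = 0.991), Niban2 (0.988) and Mbd2 (0.987). For Gad1 they were Gpalpp1 (0.977) and Copg2 (0.966), and for Gad2 Map2k4 (0.993), Prkacb (0.983) and Ankrd34b (0.980). Slc6a11 was most like Camkv (0.995), the nociceptin receptor gene Oprl1 (0.995) and Mpped1 (0.995). Those 3 also had their lowest level in mouse 12M, for instance 2.93 CPM of Camkv against 17.2 to 34.7 CPM in the other mice. Abat was alike to Magee1 (0.985) and Ap1b1 (0.984), and Aldh5a1 was most like Npas3 (0.992), Lsamp (0.983) and Tmod2 (0.971).

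The wider pathway was read from 40 further genes in 8 lists, all of which were tested and 0 of which were called by edgeR. Of these 29 had lower and 11 higher fitted levels in Atm-KO, with a median log2 fold change of -0.11. At an unadjusted p under 0.05, 7 were lower and 2 higher, beside the 8.48% and 11.7% of all genes given above. Separation of the genotypes was seen in 4 that were lower and 1 that was higher, beside 5.12% and 6.47% of all genes. DESeq2 called 3 of the 40, beside 2.44% of its genes lower and 5.05% higher: Glul (adjusted p = 0.0462) and Maob (adjusted p = 0.0295) lower and Clcn2 (adjusted p = 0.0263) higher.

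**Figure D3:**
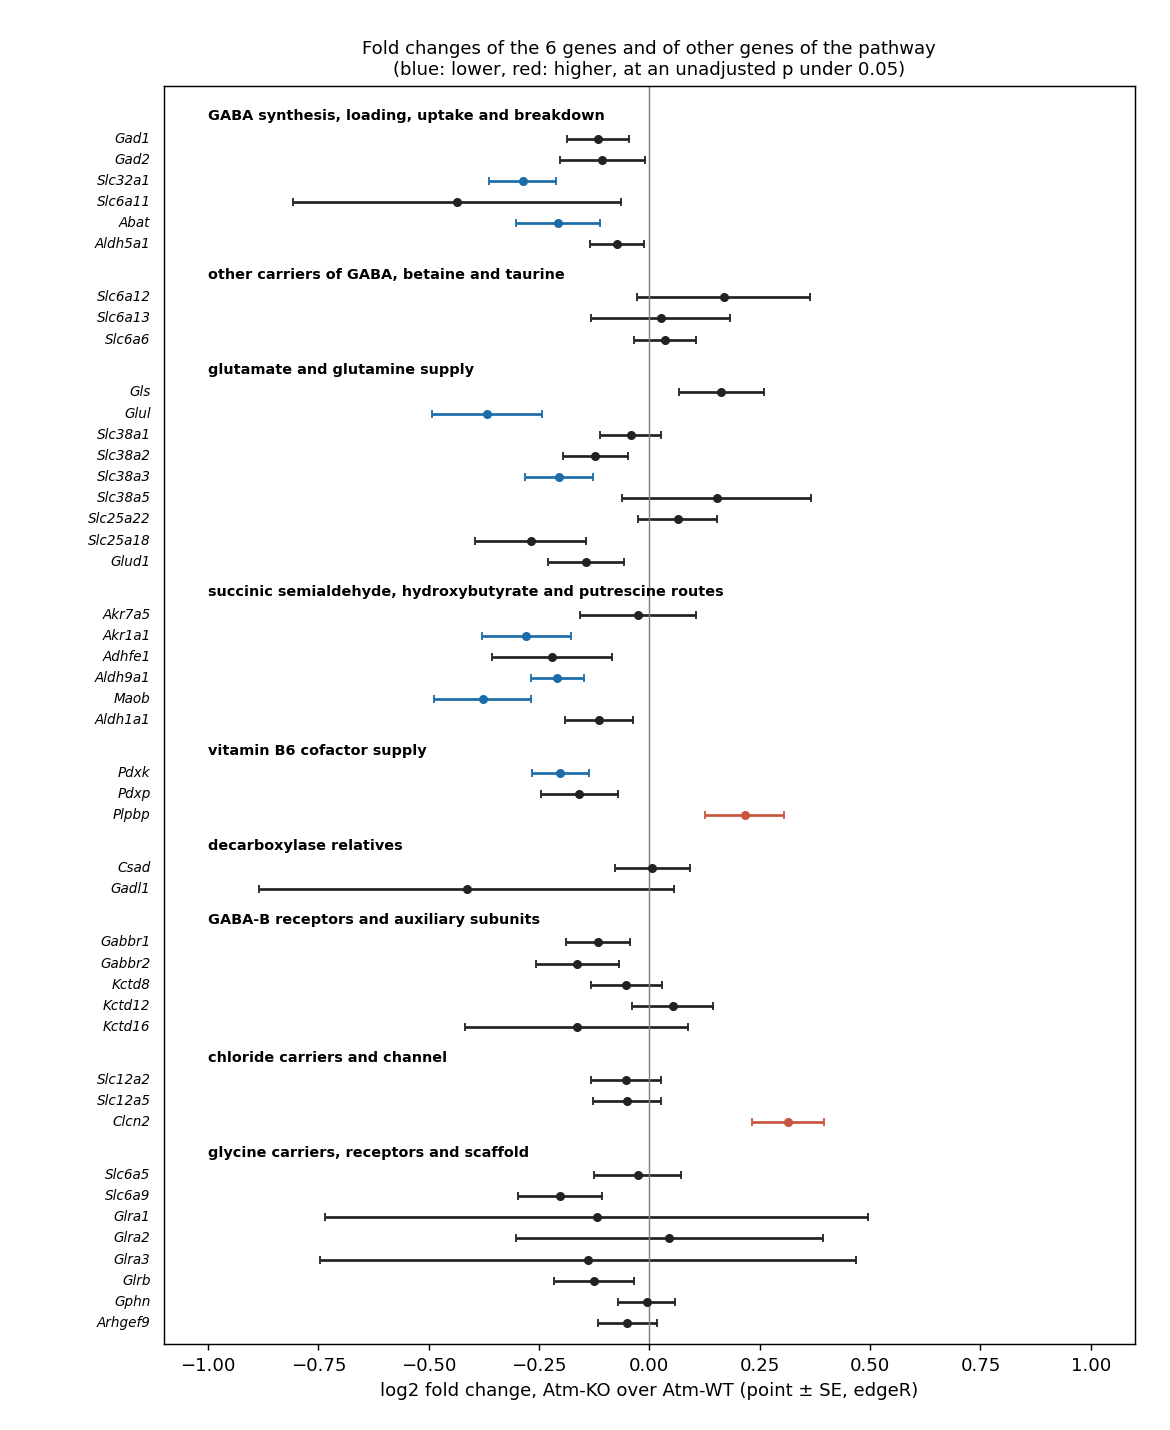
Log2 fold change of Atm-KO over Atm-WT (x axis, points, with bars of ± 1 SE from edgeR) for the 6 genes and other genes of the pathway, grouped by list (y axis). Blue marks lower and red higher genes at an unadjusted p under 0.05, and 0 of the genes drawn passed the adjusted threshold.

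Supply of the substrate came first in the pathway. Of 9 genes of glutamate and glutamine supply, 2 were lower at an unadjusted p under 0.05 and 0 were higher. Glul, the glutamine synthetase of astrocytes, was at 1204, 1147, 1294 and 1290 CPM in Atm-WT mice 2M, 7M, 13M and 32M and at 945, 1094, 1081 and 706 CPM in Atm-KO mice 1M, 7F, 11M and 12M. Its genotypes did not overlap, and the log2 fold change was -0.37 ± 0.12 (edgeR, adjusted p = 0.148). With 1 surrogate variable in the fit it was -0.16. The glutamine carrier Slc38a3 was at -0.20 ± 0.08 (adjusted p = 0.178), and its genotypes overlapped.

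The cofactor of glutamate decarboxylase and of GABA transaminase, pyridoxal phosphate, comes from vitamin B6. Of its 4 genes, 2 were lower and 1 higher at an unadjusted p under 0.05. Pdxk, the kinase of that route, was at 203, 206, 210 and 210 CPM in Atm-WT mice and at 172, 194, 189 and 165 CPM in Atm-KO mice, without overlap (log2 fold change -0.20 ± 0.06, edgeR, adjusted p = 0.138). Plpbp, a pyridoxal phosphate binding protein, was at 0.22 ± 0.09 in the other direction (edgeR, adjusted p = 0.208). With 1 surrogate variable in the fit Pdxk was at -0.13 and Plpbp at 0.08.

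Of 6 genes of succinic semialdehyde, hydroxybutyrate and putrescine routes, all had lower fitted levels in Atm-KO, and 3 of them had an unadjusted p under 0.05. Maob, the monoamine oxidase through which astrocytes can make GABA from putrescine, was at 28.1, 26.1, 25.1 and 24.1 CPM in Atm-WT mice and at 18.0, 22.2, 22.9 and 16.5 CPM in Atm-KO mice. Neither it (log2 fold change -0.38 ± 0.11, edgeR, adjusted p = 0.119) nor Aldh9a1, an aldehyde dehydrogenase of the same route (-0.21 ± 0.06, adjusted p = 0.117), overlapped between genotypes. Akr1a1, an aldehyde reductase named after its value was seen, was at -0.28 ± 0.10 (adjusted p = 0.167) and overlapped.

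Other carriers showed no lower fitted level. Slc6a12, the betaine and GABA carrier, was at 0.17 ± 0.20 (edgeR, adjusted p = 0.663; 0.10 without mouse 13M or 2M, 0.36 without 7M) and the taurine carrier Slc6a6 at 0.04 ± 0.07 (adjusted p = 0.813), with 0 of 3 carriers at an unadjusted p under 0.05. Of the decarboxylase relatives, Csad was at 0.01 ± 0.09 (adjusted p = 0.974) and Gadl1, at 0.0592 to 0.245 CPM, was at -0.41 ± 0.47 (adjusted p = 0.655). The Gadl1 value was -0.18 without mouse 12M, -0.28 without 1M and -0.81 without 7F.

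On the receiving side, 0 of 5 GABA-B receptor and auxiliary genes had an unadjusted p under 0.05. Gabbr1 and Gabbr2, the obligate receptor partners, were at -0.12 ± 0.07 (edgeR, adjusted p = 0.390) and -0.16 ± 0.09 (adjusted p = 0.348), and without mouse 1M at -0.07 and -0.10. Of 3 genes of chloride balance, the chloride channel gene Clcn2 was the only one at an unadjusted p under 0.05. Clcn2 was at 31.5, 34.8, 28.9 and 30.6 CPM in Atm-WT mice 2M, 7M, 13M and 32M and at 40.8, 35.2, 37.9 and 42.5 CPM in Atm-KO mice 1M, 7F, 11M and 12M. Every Atm-KO mouse lay above every Atm-WT mouse (log2 fold change 0.31 ± 0.08, adjusted p = 0.105), and 1440 of its exon bases are shared with Fam131a and 641 with Polr2h on the opposite strand. The sodium, potassium and chloride carrier Slc12a2 was at -0.05 ± 0.08 (adjusted p = 0.747), between -0.12 and 0.02 with a library left out.

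Of 8 glycine carriers, receptors and scaffold genes, 7 had lower fitted levels and 0 had an unadjusted p under 0.05. Slc6a9, the glial glycine carrier, was at -0.20 ± 0.10 (edgeR, adjusted p = 0.258). Glrb, the shared receptor subunit, was at -0.13 ± 0.09 (edgeR, adjusted p = 0.464). Glrb was at -0.07 without mouse 32M, -0.08 without 12M or 13M and -0.20 without 2M. With 1 surrogate variable in the fit Slc6a9 was at -0.06 and Glrb at -0.02. Markers of further cells were set beside these values. At an unadjusted p under 0.05, 2 of 6 oligodendrocyte, 3 of 5 microglia, 3 of 5 choroid plexus and 1 of 5 meningeal markers were lower. Of 5 granule cell markers 0 were lower or higher, and no list held a called marker. Over all genes tested, 8.48% were lower and 11.7% higher at that p. Summed microglia markers were at 72.5 to 101 CPM in Atm-WT mice against 59.3 to 77.1 CPM in Atm-KO mice, choroid plexus markers at 767 to 1534 and 418 to 1194 CPM, and granule cell markers at 4133 to 5062 and 4349 to 6064 CPM. Their part in the values of the pathway was not tested.

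The fold changes of the 6 genes were also followed over 16 other ways of fitting. Slc32a1 kept its lower fitted level in all 16, between -0.32 and -0.21, with adjusted p-values from 0.0274 to 0.421. Gad1 (-0.14 to -0.05), Abat (-0.26 to -0.08) and Aldh5a1 (-0.10 to -0.02) were below 0 in all 16 as well, though their size varied more than 1.5 times, whereas Gad2 (0.04) and Slc6a11 (0.27) were above 0 with 1 surrogate variable in the fit.

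**Figure D4:**
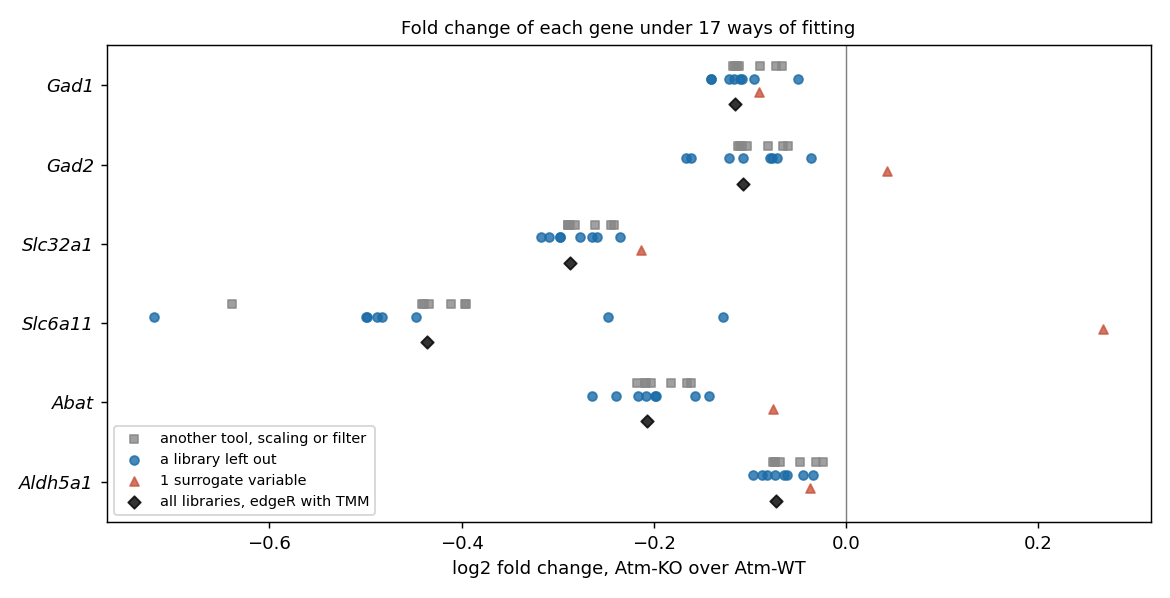
Log2 fold change of Atm-KO over Atm-WT (x axis) of each of the 6 genes (y axis) with all libraries in edgeR (black), with a library left out (blue), with another tool, scaling or filter (grey) and with 1 surrogate variable (red). The points of Slc32a1 stay between -0.32 and -0.21, while those of Slc6a11 run from -0.72 to 0.27.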

How the data were processed

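RNA of 8 frozen mouse cerebella was extracted with TriZOL and sequenced by Novogene on an Illumina platform. The authors checked reads with FastQC 0.11.9, aligned them with STAR to GRCm39 and deposited raw counts per gene from featureCounts, without normalization. Strand and pair settings are not given in the sources used here. Between 67.3% and 73.3% of counts from 1 to 50 were even numbers, so a count may be a read or a fragment. Identifiers were matched without version to GENCODE vM39 on GRCm39 (56017 of 56691, 98.81%), from which positions, exons and promoter windows were taken.

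Groups followed the labels, and every library was used. Genes were kept by filterByExpr, scaled by TMM and tested with edgeR 4.0.16 (glmQLFit, glmQLFTest) in R 4.3.3, with Benjamini-Hochberg adjustment over 22423 genes and no covariate. Log2 CPM used a prior count of 2. Intervals cover 95% at the degrees of freedom of that test. Correlations with Slc17a6 used exact permutation over mice. Alternatives were DESeq2 1.42.0, limma voom 3.58.1, RLE factors, library size alone, no filter, at least 10 counts in every library, protein-coding genes alone, 1 surrogate variable from sva 3.50.0, and each library left out in turn. The procedure was tested on simulated data.

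The 6 genes and the lists were chosen with earlier results of these data known. Named besides them were Atm, the 2 genes of smallest p in each pathway list, markers and antisense neighbours given beside a result, and genes among the 3 most like each of the 6. Values of some genes of these lists are not reported here, although counts and medians include them. The labels pair no mice, and each edgeR p-value sets the difference between genotypes against the estimated spread between mice.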

Additional observations from a re-analysis of the deposited data

Results flagged for a closer look

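Of 144 groups of 4 mice examined (each genotype for the genes given with their values, the antisense genes of the 6, the within-library ratios and the summed marker lists), 6 had a mouse whose gap to the nearest other exceeded Dixon's critical value, and chance alone marks about 1 in 20 groups. Marker and pathway genes counted only within their lists were not examined one by one. Slc17a6, the glutamate carrier whose level ran with that of Slc6a11, was at 115.7 CPM in Atm-WT mouse 32M and at 73.65 to 75.93 CPM in the other 3 Atm-WT mice. In the same mouse Camkv was at 34.72 CPM (17.17 to 18.28 CPM in the others) and Mpped1 at 11.06 CPM (6.862 to 7.254 CPM), both genes named for their likeness to Slc6a11. Among Atm-KO mice, Tph2 was at 4.32 CPM in mouse 11M (1.02 to 1.21 CPM in the others). In mouse 12M, Cbln3 was at 1483 CPM (1157 to 1172 CPM) and Gpalpp1 at 61.2 CPM (65.9 to 66.5 CPM).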

How the results depend on the processing

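The fold changes of Atm and of 22 genes, with the counts and median given below, were recomputed under up to 16 alternatives (14 for Gadl1). Marker lists, ratios, levels per kilobase, antisense genes and correlations were not. The reported edgeR fit with all libraries called 0 of the 6 genes, DESeq2 called 1 and the other 15 alternatives called 0. For the 40 pathway genes these counts were 0, 3 and 0. DESeq2 also called 1552 genes over all and edgeR 4, while edgeR without a filter on low counts called 591 of 36568 genes. The fold change of Atm was past the adjusted threshold with DESeq2 (-0.66), with no filter (-0.66), with 1 surrogate variable (-0.77) and without Atm-WT mouse 32M (-0.74), and ranged from -0.74 to -0.59 when a library was left out. The number of the 6 genes without overlap could be counted under 13 alternatives, since DESeq2, limma voom and the surrogate variable give no separate level per library. It ranged from 1 to 2 when a library was left out. Slc32a1 was among them each time, joined by Gad1 without mouse 12M, 1M, 2M or 32M and by Abat without mouse 13M. With 1 surrogate variable, whose loading was largest in mouse 12M (-0.763) and mouse 32M (0.566), the fold changes of Gad2 (0.0427) and Slc6a11 (0.27) changed sign. Of the named pathway genes, Slc6a6 changed sign without mouse 11M, Csad without mouse 12M, 7F or 2M, and Slc12a2 without mouse 13M. Over all libraries left out in turn they ranged from -0.0065 to 0.0852, from -0.0375 to 0.0722 and from -0.1196 to 0.0172. The cause was not tested. Of 350 values of single genes under these alternatives, 339 kept their sign and side of the threshold. The median log2 fold change of the 6 genes stayed below 0, from -0.20 to -0.06. With library size alone, 75.7% of the genes at an unadjusted p under 0.05 were higher in Atm-KO, with at least 10 counts in every library 66.01%, and in the reported fit 58.0%. Leaving out a library changed the number of all genes called by edgeR from 4 to between 1 (without 2M, 1M or 11M) and 27 (without 13M). Each of the 6 genes had at least 2262 counts in every library, and 4 mice per genotype set the precision of each comparison. No paired analysis was possible because the labels pair no mice.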
